A study of Mus musculus with 7 samples.

Results

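Genomic imprinting was examined here through the chromatin of 46 imprinted genes, 39 protein-coding and 7 lncRNA genes, taken by name from a fixed list among 55413 annotated mouse genes. ATAC-Seq, in which a transposase cuts and tags DNA that is not packed away, had been applied to sorted mouse pancreatic islet cells of 3 types, alpha, beta, and delta, and the lists of peaks, the stretches where cuts pile up, were analysed for 2 alpha, 3 beta, and 2 delta libraries. All mice carried the mIns1-H2b-mCherry reporter, which labels beta cell nuclei, and a Rosa-LSL-YFP reporter that Gcg-Cre switches on in alpha cells or Sst-Cre in delta cells, and each replicate was a pool of mice of one sex. The Cre line behind each beta library is not given, nor is which libraries share mice, and replicate numbers only name libraries. For each gene, peaks were scored within 1 kb of any annotated transcript start and across the gene body plus 10 kb on either side, and the genes were grouped into the 19 imprinted domains on 10 chromosomes in which they lie, 18 of the genes on chromosome 7.

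An imprinted gene is transcribed mainly from one parental copy, because a differentially methylated region (DMR) was marked in the egg or the sperm and kept through development. Many imprinted genes sit in domains in which one such germline DMR, often at the promoter of a long non-coding RNA, sets the state of several neighbours. ZFP57 binds the methylated copy of many germline DMRs at the letters TGCCGC and recruits TRIM28, and CTCF and YY1 bind unmethylated copies of some of them. In the pancreas the family is known for growth control and insulin secretion, and PLAGL1 for transient neonatal diabetes. Peak lists hold one signal per locus, so the maternal and the paternal copy could not be separated in any value below.

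The sequences shown are the parts of 7 peaks on which the results turn: the starts of Plagl1, Peg13, and Magel2, which were weaker or absent in the beta libraries, the strong start of Zim1, the starts of Snrpn and Kcnq1ot1 at the centres of their domains, and a peak inside Peg3. Capitals mark matches, on either strand, of the ZFP57 motif TGCCGC and, in Peg3, also of the YY1 core GCCATNTT, and each sequence was read from the reference genome 5′ to 3′ on the strand of its gene.
Plagl1, start at its second cluster of transcripts (GRCm38 chr10:13090578-13090817, plus strand): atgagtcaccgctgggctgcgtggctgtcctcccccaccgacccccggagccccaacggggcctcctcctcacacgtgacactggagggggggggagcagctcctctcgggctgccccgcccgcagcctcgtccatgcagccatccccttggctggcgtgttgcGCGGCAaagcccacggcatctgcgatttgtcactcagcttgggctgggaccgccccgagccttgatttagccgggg
Peg13, downstream of its start (GRCm38 chr15:72809920-72810159, minus strand): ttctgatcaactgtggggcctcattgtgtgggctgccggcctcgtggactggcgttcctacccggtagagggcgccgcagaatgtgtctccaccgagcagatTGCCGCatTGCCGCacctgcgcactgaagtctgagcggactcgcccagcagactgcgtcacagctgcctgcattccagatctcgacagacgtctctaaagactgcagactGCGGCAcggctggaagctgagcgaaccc
Magel2, upstream of its start (GRCm38 chr7:62376839-62377008, plus strand): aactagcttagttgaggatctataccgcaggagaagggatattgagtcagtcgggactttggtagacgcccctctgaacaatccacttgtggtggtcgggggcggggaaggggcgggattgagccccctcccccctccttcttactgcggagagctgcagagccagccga
Zim1, across its start (GRCm38 chr7:6696425-6696664, minus strand): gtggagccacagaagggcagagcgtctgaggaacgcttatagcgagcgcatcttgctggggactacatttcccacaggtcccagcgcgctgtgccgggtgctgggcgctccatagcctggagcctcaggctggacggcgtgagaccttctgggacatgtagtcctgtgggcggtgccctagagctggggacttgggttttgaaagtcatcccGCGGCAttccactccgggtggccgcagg
Snrpn, downstream of its start (GRCm38 chr7:60004264-60004503, minus strand): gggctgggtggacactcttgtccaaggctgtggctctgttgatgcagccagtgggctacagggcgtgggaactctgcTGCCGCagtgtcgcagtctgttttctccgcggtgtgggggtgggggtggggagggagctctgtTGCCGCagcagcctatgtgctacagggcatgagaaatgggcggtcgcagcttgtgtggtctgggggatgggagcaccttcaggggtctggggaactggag
Kcnq1ot1, across its start (GRCm38 chr7:143296521-143296760, minus strand): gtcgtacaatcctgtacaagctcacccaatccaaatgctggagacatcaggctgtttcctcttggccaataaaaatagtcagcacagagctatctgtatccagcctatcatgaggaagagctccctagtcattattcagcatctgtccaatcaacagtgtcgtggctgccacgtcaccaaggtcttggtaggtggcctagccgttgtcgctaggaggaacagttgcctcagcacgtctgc
Peg3, inside the gene downstream of its start (GRCm38 chr7:6728235-6728534, minus strand): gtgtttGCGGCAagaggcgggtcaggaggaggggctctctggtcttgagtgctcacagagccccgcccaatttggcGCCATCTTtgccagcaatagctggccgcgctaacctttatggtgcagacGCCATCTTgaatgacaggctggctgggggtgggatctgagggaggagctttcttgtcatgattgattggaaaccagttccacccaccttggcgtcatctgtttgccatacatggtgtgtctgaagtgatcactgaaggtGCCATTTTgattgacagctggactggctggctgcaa

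The Peg13 stretch, 165 to 404 bp downstream of the start, held 3 ZFP57 motif matches in 240 bp. Among the 11071 merged regions of the genome with a peak of -log10 q of at least 2 in all 7 libraries, 17.4% held a match in a window of that length and 0.388% held at least 3. The Snrpn stretch held 2 matches, a number reached by 2.90% of these windows, and the whole Snrpn start region of 747 bp held 5, a number reached by 0.244% of windows of that length. Plagl1 and Zim1 showed 1 match each in the printed stretch, while Magel2 and Kcnq1ot1 showed none. The 300 bp from Peg3 carried 3 YY1 core matches and 1 ZFP57 match, and were picked as the part of their region with most YY1 core matches. Of windows not picked in that way, 6.61% held any YY1 core and 0.163% held 3 or more. These shares therefore do not measure how unusual the Peg3 stretch is. The CTCF core GGNGGCAG was found in none of the 7 stretches, and 13.4% of 240 bp windows held it. A match is a match of letters, and binding was not measured.

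Peaks were compared by their rank in their own library, where rank 1 is the strongest peak by -log10 p and a rank of 0 stands for no peak, so that a library above another has the smaller rank. The rank score falls evenly from 1 at the strongest peak to 0 at rank 50000 and beyond. The lists held 75860 to 158066 peaks in 6 libraries and 518503 in beta replicate 1. Of these, 25903 peaks in beta 1 and 32047 to 52057 in the others reached a -log10 q of 2, so beta 1 stands apart and a peak in that library alone is mostly a weak one. Across all genes, rank scores correlated at 0.932 between the alpha libraries, 0.933 between the delta libraries, and 0.823 to 0.860 between the beta libraries, and alpha with delta at 0.898 to 0.926. Beta 3 correlated at 0.872 to 0.893 with the alpha and delta libraries, more than with beta 1 or beta 2, so the beta libraries did not group together on this measure. All of these values share the genome's promoters as points. The 3 beta lists are named for a cell type other than the labelled one, and the labels were used. Of 6 alpha marker genes, 6 had a start peak with -log10 q of at least 2 in each alpha library, 2 in each beta library, and 5 in each delta library. Of 6 beta marker genes, 3 had one in each alpha library, 3, 3, and 4 in beta, and 5 and 4 in delta, so that list did not set the beta libraries apart, and the start of Ins2 reached that level in none of the 7. Of 4 delta marker genes, 3 had one in each alpha and each delta library, and 1, 0, and 0 in beta. Alpha 1, alpha 2, and beta 1 came from lane 6 by their file names and the other 4 libraries from lane 7, so that alpha against delta and lane cannot be told apart.

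Counting peaks of any strength at any of a gene's starts, most imprinted genes had an accessible start in each cell type. A start peak was present in at least 2 replicates for 33 of the 46 genes in alpha cells, 35 in beta cells, and 32 in delta cells. Among the protein-coding members these were 29, 30, and 28 of 39, where the shares over all protein-coding genes were 62.2%, 63.6%, and 59.2%. Among the lncRNA members, RNAs that are often the regulators of a domain, they were 4, 5, and 4 of 7, against 25.2%, 27.3%, and 24.1% of all lncRNA genes. This rule asked for 2 of 3 libraries in beta but for both libraries in alpha and in delta, so the counts are not on equal terms. The beta count was 24 genes with beta 1 left out, where both remaining beta libraries had to have a peak. Start peaks in all 7 libraries were found for 22 genes, 19 of 39 protein-coding members (48.7%, background 46.6%) and 3 of 7 lncRNA members (background 15.3%). For the protein-coding members this share was close to the background. Of the 46 members, 39 have several annotated starts, and the background was not matched for that. Within 1 kb of the gene's 5′ end alone, 16 of the 46 had a peak in all 7 libraries, against 9112 of 21938 protein-coding genes. In such bulk libraries, fewer cells with an accessible start and less access per cell cannot be told apart.

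With only peaks of -log10 q of at least 2, the starts of 15 genes were accessible in all 7 libraries, 14 protein-coding (background 34.3%) and 1 lncRNA gene (background 10.7%), the latter being Airn. At the other end, 10 genes had no start peak of that strength anywhere, 8 of 39 protein-coding members (background 32.7%) and 2 of 7 lncRNA members (background 67.2%). These were H19, Ascl2, Slc22a18, Dlk1, Rtl1, Rian, Dio3, Ndn, Mkrn3, and Sfmbt2. Ndn alone lacked a start peak of any strength, 1 of 39 protein-coding members (background 11.2%) and 0 of 7 lncRNA members (background 31.8%), and Ndn is taken up with its neighbours below.

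**Figure D1:**
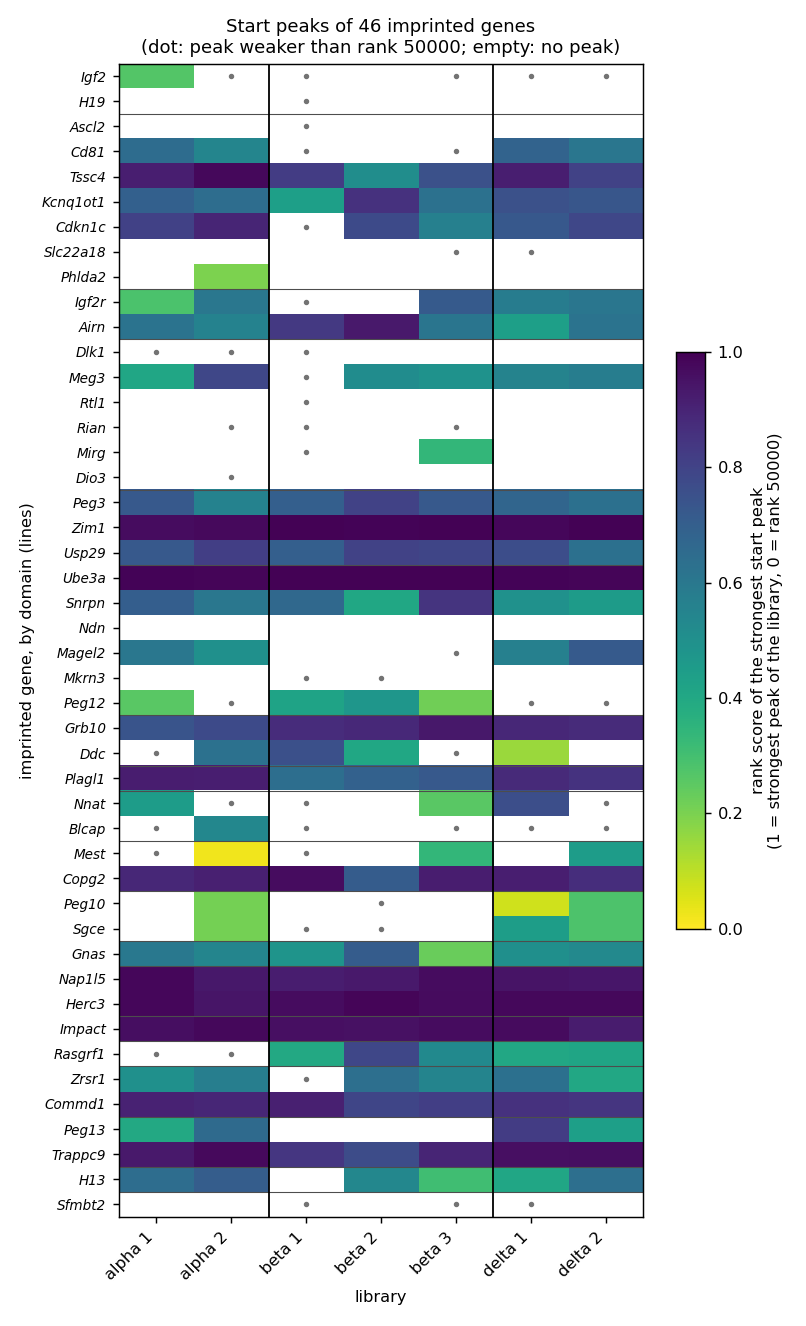
Rank score of the strongest start peak (colour, 1 = strongest peak of the library, 0 = rank 50000) of the 46 imprinted genes, grouped by domain, in each of the 7 libraries; a dot is a peak weaker than rank 50000 and an empty cell is no peak. Ube3a, Zim1, Herc3, and Impact are near 1 in every library, while most of the Dlk1-Dio3 domain is empty or dotted and the Plagl1, Peg13, Magel2, and Cd81 cells are paler or empty in the beta columns.

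Genes were also counted by whether a start of theirs lies at a germline DMR, as classed from general knowledge of each locus. The peak counted could lie at any start of the gene, not only at the DMR. Of 16 such genes, among them Snrpn, Peg3, Kcnq1ot1, Airn, and Impact, 11 had a start peak in all 7 libraries, against 11 of the other 30, where 46.6% of all protein-coding and 15.3% of all lncRNA genes had one. Gnas is among the 11 DMR genes, though none of its starts taken singly had a peak in all 7. Peg3 and Usp29, counted separately, share a start region. None of the 16 lacked a start peak of -log10 q of at least 2 throughout, whereas all 10 genes without one belonged to the other 30. Over all genes, 32.7% of protein-coding and 67.2% of lncRNA genes had none. This contrast depended on the annotation: at RefSeq starts Nnat, one of the 16, had no peak in any library. Ndn, one of the 10, had a peak of that strength in all 7 there. By the expressed parental copy, peaks in all 7 libraries were found for 9 of 19 maternally and 11 of 25 paternally expressed genes, both near the protein-coding background. These counts are a description, and no test was made of them.

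The 10 members with the highest median rank score were Zim1, Ube3a, Herc3, Impact, Nap1l5, Trappc9, Copg2, Grb10, Commd1, and Plagl1. Ube3a (chr7:59228750-59311536), a ubiquitin ligase that is imprinted in neurons, ranked 557 and 747 in alpha, 331, 252, and 225 in beta, and 477 and 743 in delta cells, so that its 3 beta ranks lay above all others. Zim1, a zinc finger gene of the Peg3 domain, ranked 1640 and 1361 in alpha, 368, 436, and 230 in beta, and 966 and 348 in delta cells. Its beta values and delta 2 stood together above delta 1 and both alpha libraries. Herc3, another ubiquitin ligase, ranked between 752 (beta 2) and 2872 (alpha 2), and Nap1l5, a nucleosome assembly protein relative whose start lies inside Herc3, between 948 (alpha 1) and 3998 (beta 1). Groups overlapped for both. The Nap1l5 peak also covered a second annotated Herc3 start, 75797 bp downstream of the first.

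Impact, a regulator of the amino acid stress kinase GCN2, ranked 1154 to 3789, with delta 2 the weakest. Trappc9, a subunit of a vesicle tethering complex, ranked 3430 and 1361 in alpha, 7944, 11556, and 5208 in beta, and 2047 and 1781 in delta cells, with no overlap between beta and the rest. Copg2, a coat protein of Golgi vesicles, ranged from 1590 (beta 1) to 14616 (beta 2), wider within beta than across the cell types. Commd1, a copper handling protein, ranked 4349 to 10475, with beta 1 the strongest and beta 2 the weakest. Grb10, an adaptor that dampens insulin and IGF receptor signals, ranked 13030 and 11175 in alpha, 6281, 5756, and 3161 in beta, and 5556 and 6063 in delta cells. Both alpha values lay below all others, and beta and delta overlapped. The alpha peaks lay at the start 1282 bp downstream of the outermost, and the beta and delta peaks at the start 11951 bp downstream, so these ranks compare different starts.

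Plagl1 was weaker in all 3 beta libraries than in any alpha or delta library. This zinc finger gene (chr10:13060504-13131694) encodes a transcription factor that slows growth, and its start peak, whose sequence is printed above, ranked 3911 and 4292 in alpha, 18028, 15556, and 14059 in beta, and 5865 and 7259 in delta cells. All alpha ranks were above all delta ranks. The peak's -log10 q was 26.8 and 30.1 in alpha, 2.79, 4.17, and 6.21 in beta, and 26.3 and 16.7 in delta, and its fold enrichment over the local background was 12.1 and 12.8, 4.17, 5.22, and 6.33, and 12.4 and 10.4. The mean rank scores were 0.918, 0.682, and 0.869, and a share of 0.956 of the variance lay between cell types, below the 0.988 of Cd81 and 0.973 of Magel2. The exact permutation test gave p = 0.00952 for Plagl1. That is the smallest p that the 210 assignments of 2, 3, and 2 libraries allow, and the p adjusted over all genes was 0.916. With that limit, and 412 of 39627 genes under 0.01, the test could hardly pass adjustment for any gene. A lack of adjusted calls, here and below, therefore does not show that the cell types are alike.

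Peg13, Magel2, and Cd81 were likewise weaker or absent in beta cells. Peg13, a lncRNA transcribed from within an intron of Trappc9 (chr15:72805600-72810324), had a start peak at ranks 30231 and 17319 in alpha and 8805 and 28246 in delta cells and none in any beta library. It was the only member with a start peak in every alpha and delta library and in no beta library, 1 of 45 with any start peak, where 0.336% of all such genes had that pattern. Magel2, a MAGE family regulator of protein recycling (chr7:62377010-62381640), ranked 19795 and 25190 in alpha and 21717 and 14243 in delta cells, against 0, 0, and 86157 in beta, the last being a weak peak. For Cd81, a tetraspanin of the cell surface (chr7:143052739-143067934), the ranks were 17753 and 22812 in alpha, 63958, 0, and 102007 in beta, and 16012 and 19662 in delta cells. In each of these genes every beta library scored 0 and the alpha and delta libraries overlapped. By the paper's quality figures, beta 1 and beta 2 had the fewest unique mapped reads of the 7 libraries. The part of read depth in these patterns was not tested.

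With Trappc9 and Plagl1, these made 5 of 45 members (11.1%) whose lowest alpha or delta score exceeded the highest beta score, where 5.12% of all genes with a start peak did. The reverse, every beta score above every alpha and delta score, held for Ube3a alone, 1 of 45 (2.22%), where 1.48% of genes did. By the exact permutation test over libraries, Peg13, Magel2, and Cd81 each had p = 0.0190 before adjustment. The fifth member under 0.05 was Rasgrf1, a Ras activator (chr9:89909908-90026977), with p = 0.0381 (exact). Its start ranked 51992 and 52142 in alpha, 30135, 10730, and 23674 in beta, and 29914 and 29464 in delta cells, so that both alpha libraries scored 0 and beta overlapped delta. In all, 5 of 45 members had an unadjusted p under 0.05, against 4.11% of 39627 genes (1630), and after adjustment there were 0 members and 0.0% of genes.

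**Figure D2:**
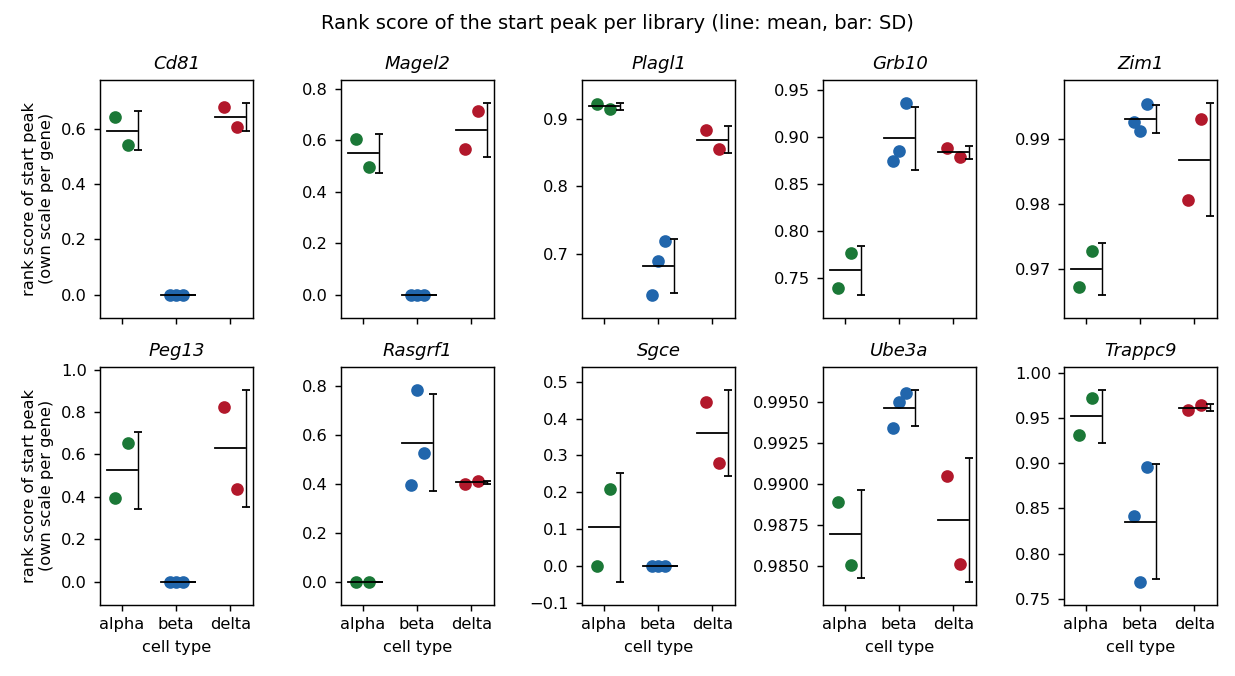
Rank score of the start peak (vertical axis, own scale per gene) in each alpha, beta, and delta library for the 10 imprinted genes with the largest share of variance between cell types; points are libraries, lines means, and bars SD (n = 2, 3, and 2). Beta points sit at 0 for Cd81, Magel2, Peg13, and Sgce, lie lowest for Plagl1 and Trappc9, and lie highest for Ube3a.

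The same 10 genes were compared inside each lane, alpha with beta 1 in lane 6 and delta with beta 2 and 3 in lane 7. The rank score was higher in alpha than in beta 1 by 0.594 for Cd81, 0.550 for Magel2, 0.525 for Peg13, and 0.279 for Plagl1, and higher in delta than in beta 2 and 3 by 0.643, 0.640, 0.630, and 0.165. For Trappc9 the differences were 0.111 and 0.129. In Rasgrf1 the score was lower than in beta in both lanes, with differences of -0.397 and -0.250, and in Ube3a too, at -0.00642 and -0.00743. Grb10 (-0.116 and -0.0270) and Zim1 (-0.02265 and -0.00648) were also lower, but overlapped with beta in lane 7. Sgce was higher, by 0.105 and 0.361, and overlapped with beta in lane 6. The genes were picked for their share between cell types and lane 6 holds 1 beta library, so these differences are a description with no test. A comparison of one cell type with another could not pass 0.05 either, since its smallest two-sided exact p is 0.1 for beta against alpha or delta and 0.333 for alpha against delta.

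Left-out libraries and other measures moved these single-gene values. Without any one beta library the smallest possible exact p is 0.0667, so none of the 5 members stayed under 0.05. Without beta 1 it was 0.0667 for Plagl1 and Rasgrf1 and 0.133 for Peg13, Magel2, and Cd81. The percentile in each library's own list, which counts beta 1's many weak peaks, gave an exact p of 0.324 for Plagl1 and 0.210 for Cd81, and the peak's -log10 q gave 0.410 for Rasgrf1 and 0.105 for Peg13. On the -log10 q scale the beta libraries were on average lower, not higher, than the others for Ube3a, Zim1, and Grb10.

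By the median over the 7 libraries, the Peg3 domain on chromosome 7 was the most densely accessible of the 19. In each single library some other domain was denser. Peg3, a zinc finger gene, and Usp29, a deubiquitinase gene, start 0.147 kb apart in the annotation at a germline DMR. Their shared region of 531 bp ranked 13978 and 24258 in alpha, 15161, 9921, and 13870 in beta, and 16314 and 18419 in delta cells, and the groups overlapped. In alpha 2 a separate peak within 1 kb of the Peg3 start was stronger, at rank 22086. Inside Peg3, 1368 bp from the nearest start, lay a longer region (chr7:6727719-6729051) with 8 YY1 core matches in 1333 bp, a number reached by 0.163% of windows of that length, and part of it is printed above. It ranked 11420 and 9122 in alpha, 3170, 2276, and 4005 in beta, and 8442 and 8767 in delta cells, the beta libraries above all others, and was named after its values were seen. A second Zim1 start, 7778 bp downstream, ranked 51867 and 39183, 16001, 5699, and 10235, and 25794 and 6191, with alpha lowest. Usp29 held 5 further regions along its body with -log10 q of at least 2 in all 7 libraries, and a late start 230582 bp downstream had a peak in all 7.

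Kcnq1ot1, the lncRNA that silences its neighbours on the paternal copy (chr7:143203458-143296549), had a start peak in all 7 libraries, at ranks 15409 and 17922 in alpha, 28243, 7225, and 18746 in beta, and 12310 and 13458 in delta cells. The beta values spanned the others. Among its 6 neighbours, Tssc4, a splicing factor, ranked 1048 (alpha 2) to 24499 (beta 2), and Cdkn1c, the cell cycle inhibitor p57, ranked 9754 and 5093, 77020, 11280, and 21853, and 13721 and 10552. Beta 1 was the weakest for Cdkn1c, and beta 2 lay within the delta range. Ascl2, a placental transcription factor, Slc22a18, a transporter, and Phlda2, a placental growth restrainer, had at most 2 libraries with a peak each, of which only Phlda2 in alpha 2 (rank 40190) reached a -log10 q of 2. Between the members, within Kcnq1, a region at chr7:143368300-143368644 had a peak in all 7 libraries at ranks 355 (alpha 1) to 28507 (delta 1). Another at chr7:143119344-143119564 ranked 50045 and 88702 in alpha, 7577, 3330, and 10000 in beta, and 27800 and 6721 in delta cells, with alpha lowest.

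**Figure D3:**
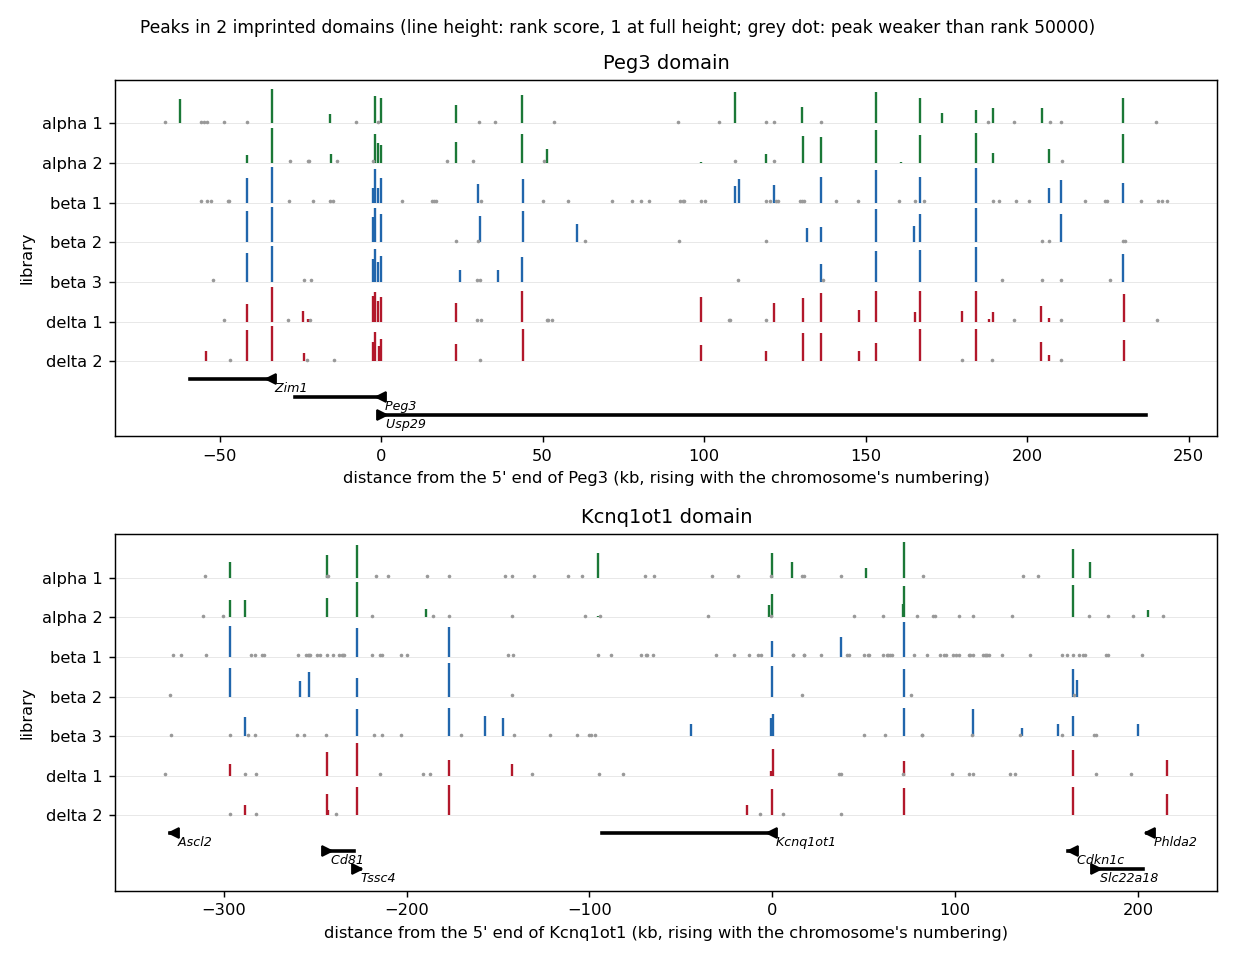
Peaks of the 7 libraries along the Peg3 and Kcnq1ot1 domains, with distance from the 5′ end of Peg3 or Kcnq1ot1 in kb on the horizontal axis, line height as rank score, grey dots as peaks weaker than rank 50000, and arrows as genes. Zim1, Peg3, and the body of Usp29 carry tall lines in every library, while Cd81 has lines in alpha and delta and only dots or none in beta.

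In the Snrpn-Ube3a domain, Ube3a, Snrpn, and Peg12 had a start peak in all 7 libraries. Snrpn, a splicing protein gene whose start is the imprinting centre, has 2 annotated start clusters: the upstream one had 1 weak peak in alpha 1, and the one 135108 bp downstream, which holds the printed stretch, ranked 14946 and 19756 in alpha, 16903, 29800, and 7485 in beta, and 25373 and 27480 in delta cells. The beta 3 value belongs to a separate peak across the start, and the region of the printed stretch ranked 10295 in beta 3. With either value, beta spanned the other groups. An intronic stretch of Snrpn at chr7:60105449-60105668, 26534 bp from any start and of 26.8% GC, ranked 580 (beta 1) to 6901 (delta 1). Mkrn3, a zinc finger ubiquitin ligase, had weak peaks in beta 1 and beta 2 only, and Peg12, a Frat family gene, ranked 26233 (beta 2) to 66595 (delta 1) in all 7. Ndn, which encodes the growth suppressor necdin, had no peak within 1 kb of its GENCODE start at chr7:62346569. The RefSeq start at chr7:62348277 lay in a peak (chr7:62348092-62349101) that was present in all 7 libraries at ranks 4349 (beta 1) to 14912 (beta 2), so its lack of a start peak depended on the annotation used.

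In the Dlk1-Dio3 domain on chromosome 12, 5 of the 6 members had a start peak in at most 3 libraries. Meg3, its maternal lncRNA (chr12:109541001-109571726), had at its outermost start 3 peaks, none with -log10 q of at least 2, while the start 1022 bp downstream ranked 29544 and 10720 in alpha, 458420, 24247, and 25566 in beta, and 22421 and 21228 in delta cells. Apart from the weak beta 1 peak, these values overlapped between cell types. Dlk1, a Notch ligand relative, had peaks of ranks 95079 and 110418 in alpha and 63958 in beta 1 and none in delta, all weak. Rtl1, a retrotransposon-derived placental gene, Rian, a snoRNA host, Mirg, a miRNA host, and Dio3, which inactivates thyroid hormone, had 1 to 3 libraries with a peak each, and only Mirg in beta 3 (rank 33058) reached a -log10 q of 2. Just past Mirg, a region at chr12:109749572-109750280 ranked 4496 (delta 2) to 24247 (beta 2) in all 7 libraries. A further region at chr12:110202315-110202534, 14254 bp from any start, ranked 1287 (beta 2) to 9840 (alpha 2).

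The growth factor Igf2 and the lncRNA H19, which share enhancers, had little access. The best Igf2 start, 7327 bp downstream of the outermost, had peaks in 5 libraries, 1 of them with -log10 q of at least 2, and H19 had a peak in beta 1 alone (rank 63958). Igf2r, the receptor that clears IGF2, ranked 35846 and 19805 in alpha, 77020, 0, and 14225 in beta, and 21062 and 19662 in delta cells. Its antisense lncRNA Airn ranked 19136 and 22085, 8326, 3382, and 19409, and 28302 and 18965. For Airn, beta 1 and beta 2 lay above all others and beta 3 among them.

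Several members had different access at different starts: of 148 start clusters, 29 had a peak in all 7 libraries and 47 in none, and in 28 of the 32 members with several clusters these differed in the number of libraries. Such counts were not made for other genes. Plagl1's outermost start had 3 weak peaks, and the peak described above lay 30187 bp downstream. Grb10 had peaks in all 7 at the starts 1282 and 11951 bp downstream. The former ranked 13030 and 11175 in alpha, 11770, 9004, and 9500 in beta, and 9924 and 14847 in delta cells, and the groups overlapped. The start 11951 bp downstream, in which lies its germline DMR, ranked 13798 and 13114 in alpha, 6281, 5756, and 3161 in beta, and 5556 and 6063 in delta cells. Gnas, which encodes the G protein subunit Gsα and several upstream products, had its most often accessible start 45686 bp downstream, in 6 libraries (all but beta 1), whereas the start 13539 bp downstream had 3 weak peaks. Mest, a hydrolase family gene, had peaks in 5 libraries at the start 14503 bp downstream and none at its outermost start, and Nnat, neuronatin, an endoplasmic reticulum protein of insulin secretion, had none within 1 kb of its main start and 6 at a start 931 bp downstream.

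The remaining members fell between these. Peg10, a retrotransposon-derived gene, and Sgce, a sarcoglycan, share a germline DMR at their starts, where peaks ranked 39506 (alpha 2), 76183 (beta 2), 46481 (delta 1), and 36080 (delta 2), with none in the other 3 libraries. A stronger region inside Peg10 at chr6:4748963-4749552 ranked 4056 (delta 1) to 8851 (beta 3) in all 7. Ddc, the decarboxylase that makes dopamine and serotonin, ranked 12304 (beta 1) to 95079 (alpha 1) and had no start peak in delta 2. Blcap, in whose intron Nnat lies, had a single start peak of -log10 q of at least 2, in alpha 2. Zrsr1, a splicing factor retrogene in an intron of Commd1, ranked 18240 (beta 2) to 78311 (beta 1). H13, the signal peptide peptidase gene, ranked 14801 (alpha 2) to 34668 (beta 3) and had no peak in beta 1. Sfmbt2, a Polycomb protein gene, had 3 weak peaks.

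Over gene bodies plus 10 kb, imprinted genes held more peaks per kb than the genome as a whole in every library. Relative to the library's genome-wide density, the median over the 46 genes was 1.76 and 2.14 in alpha, 1.09, 1.32, and 1.71 in beta, and 1.55 and 1.78 in delta cells, where the medians over all protein-coding genes were 1.37 and 1.46, 0.940, 1.18, and 1.45, and 1.22 and 1.48. The members' group means were 1.95 ± 0.270 (SD, n = 2) in alpha, 1.37 ± 0.317 (SD, n = 3) in beta, and 1.67 ± 0.159 (SD, n = 2) in delta cells, and beta 3 lay within the alpha and delta range. Densities were above 1 in all 7 libraries for 15 genes and below 1 in all 7 for Copg2 alone, and these counts were not made over all genes. In single libraries, 27 (beta 1) to 39 (alpha 2) members were above 1, where 43.9% (beta 1) to 68.4% (beta 3) of protein-coding genes were. By the exact permutation test, 2 of 46 members (4.35%) had an unadjusted p under 0.05, against 3.82% of 55413 genes, and after adjustment there were 0 members and 0.0% of genes. The members were Sgce, with 5 and 6 peaks in alpha, 17, 2, and 2 in beta, and 11 and 4 in delta cells, and Dio3, with 2 and 2, 3, 0, and 1, and 0 and 0 peaks, each with an exact p of 0.0381.

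Between domains the differences were larger. Peg3 had the highest median relative density, 2.27 (1.10 to 3.18 over the libraries), followed by Grb10-Ddc at 2.12 and Nnat-Blcap at 2.06. Kcnq1ot1 was near the genome's density at 1.03, and Igf2-H19 at 0.850, Snrpn-Ube3a at 0.830, Dlk1-Dio3 at 0.686, and Mest-Copg2 at 0.544 lay below it. Domains span 34.9 kb (Nnat-Blcap) to 3256 kb (Snrpn-Ube3a), so the values of small domains rest on 1 to 5 peaks per library, as in Nnat-Blcap outside beta 1, which held 7.

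**Figure D4:**
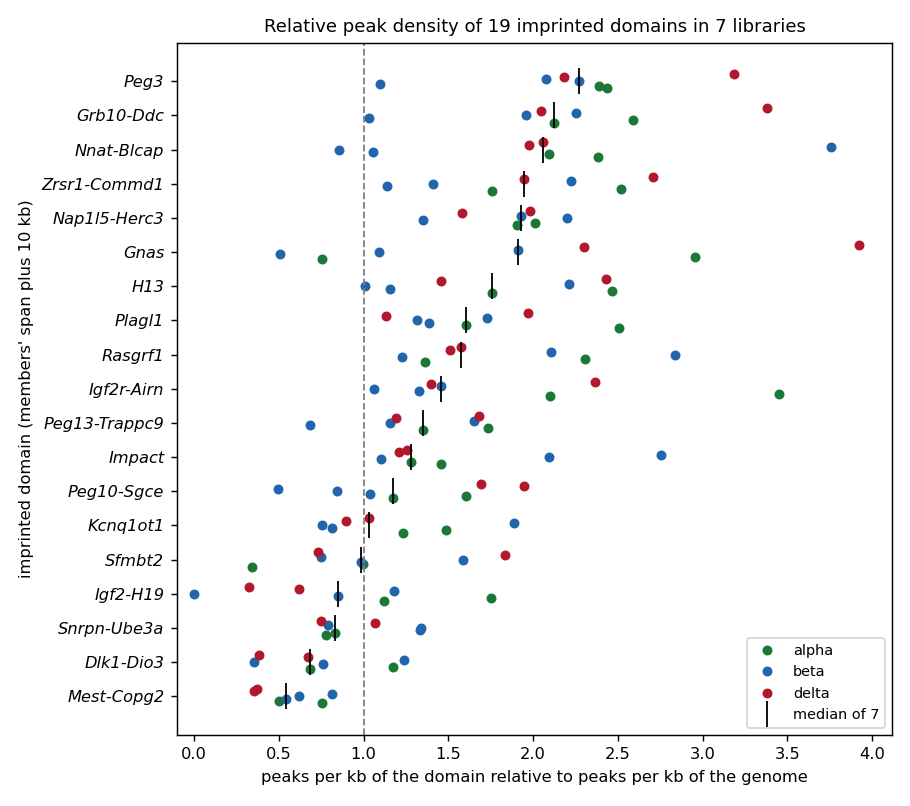
Peaks per kb of each of the 19 imprinted domains (members' span plus 10 kb) relative to peaks per kb of the genome, one point per library coloured by cell type. Peg3 and Grb10-Ddc are among several domains with every library above 1, and Mest-Copg2 has every library below 1.

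Merged across libraries, the gene bodies plus 10 kb held 276 regions with a peak in at least 2 libraries. Of these, 35 (12.7%) had a -log10 q of at least 2 in all 7 libraries, against 8.28% of 133698 regions of the genome. Of the 35, 18 lay within 1 kb of an annotated start and 17 farther. The genome's regions, here and below, include those far from genes, and no share was taken over the bodies of all genes. The sets compared are therefore unlike. Regions in every alpha and delta library and no beta library numbered 4 (1.45%, background 1.43%), at the Peg13 start, in Sgce, in Trappc9 (chr15:72833094-72833902, alpha ranks 23283 and 18477, delta ranks 15370 and 35820), and in H13. The beta libraries alone shared 2 (0.725%, background 0.592%), in Rasgrf1 and in Sfmbt2. The latter, at chr2:10569369-10569803, ranked 78632, 3154, and 6624. Delta libraries alone shared 11 (3.99%, background 2.06%) and alpha libraries alone 6 (2.17%, background 2.42%). The 3 libraries of lane 6 shared 9 that no lane 7 library had (3.26%, background 1.89%), while the 4 libraries of lane 7 shared 0 that no lane 6 library had (0.120% of the genome's regions). The part of lane in these regions was not tested.

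CpG content, measured over 1 kb at each gene's 5′ end as observed over expected CpG, rose with the number of libraries with a peak there, as it did over all protein-coding genes. The 16 members with a peak in all 7 libraries had medians of 56.8% GC and 0.698 observed over expected CpG, against 59.8% and 0.757 for protein-coding genes of that class. The 16 with a peak in at most 2 libraries had 50.7% and 0.243, against 46.2% and 0.188. Of 22 members with a ratio of at least 0.6, 12 (54.5%) had a peak in all 7 libraries, against 72.4% of 10081 protein-coding genes with such a ratio. Another 4 (18.2%), namely Ascl2, Dio3, Mkrn3, and Nnat, had a peak in at most 2 libraries, against 4.85%. The ZFP57 motif TGCCGC occurred in the 5′ windows of 20 of 46 members (43.5%, against 34.5% of protein-coding genes), the CTCF core in 18 (39.1%, against 37.3%), and the YY1 core in 4 (8.70%, against 16.9%). These are descriptions of letters in one window per gene.

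**Figure D5:**
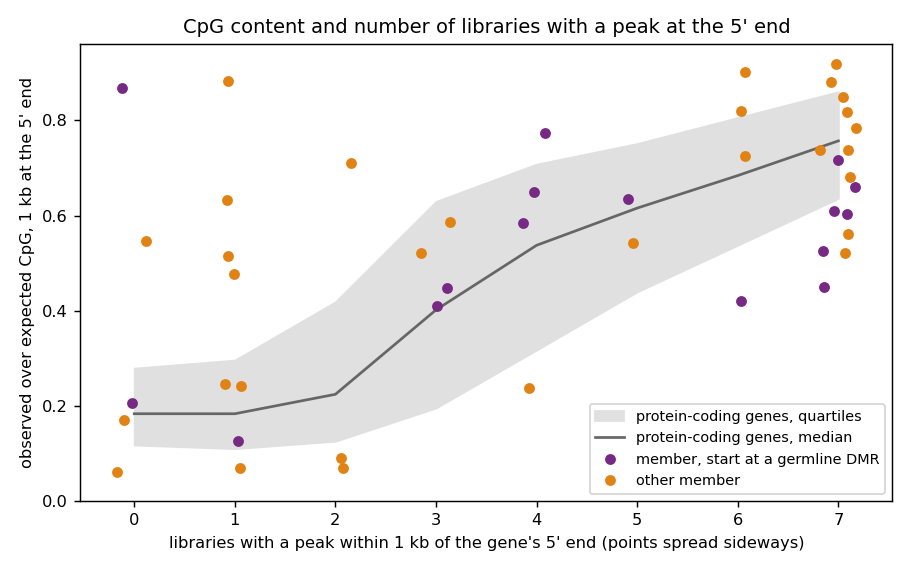
Observed over expected CpG in the 1 kb at the gene's 5′ end (vertical axis) against the number of libraries with a peak within 1 kb of it (horizontal axis, points spread sideways), with imprinted genes as points beside the median and quartiles of all protein-coding genes. The protein-coding median rises from 0.183 at no library to 0.757 at 7, and Ascl2, Dio3, Mkrn3, and Nnat lie above 0.6 on the left.

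The genes that keep imprints were scored in the same way. Of 18 listed, among them Trim28, Dnmt1, Ctcf, and Yy1, 12 had a start peak in all 7 libraries, 9 with -log10 q of at least 2, where 46.6% and 34.3% of all protein-coding genes did. Trim28, the corepressor that ZFP57 recruits, ranked 4117 (delta 2) to 6916 (delta 1). Zfp57 itself ranked 0 and 88702 in alpha, 12295, 14847, and 73400 in beta, and 42389 and 56552 in delta cells, with beta 1 and beta 2 the strongest (exact p = 0.238). Before adjustment 2 of the 18 had an exact p under 0.05, against 4.11% of all genes, both 0.0286: Dnmt3a, a de novo DNA methyltransferase, at ranks 4281 and 8104, 11812, 17651, and 12609, and 10753 and 10800, and Arid4b, a chromatin regulator, at 1704 and 1125, 113, 279, and 583, and 544 and 678. Of 23 other imprinted genes or neighbours of the members, 8 had a start peak in all 7 libraries (46.6% of all protein-coding genes did), 2 had none, and 1, Ppp1r9a, a neuronal scaffold gene beside Peg10, had an exact p under 0.05 (4.11% of all genes did). It ranked 15032 and 13268 in alpha, 5908, 2538, and 3746 in beta, and 10445 and 9375 in delta cells (exact p = 0.00952, adjusted 0.916). None of either list passed after adjustment by the exact permutation test.

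Marker genes of other pancreatic cells were scored at their starts too. At any strength, the duct gene Cftr had a start peak in all 7 libraries, the immune genes Ptprc and Csf1r in 5 and 3, and the acinar gene Prss2 in 3, while Cpa1, Cela2a, Krt19, and Cdh5 had none. No start of 4 acinar or 3 immune marker genes had a peak with -log10 q of at least 2 in any library. Of 3 endothelial markers, 1 had such a peak, in delta 1, and of 2 duct markers, 1 had one in delta 1 and delta 2. Delta markers were without a start peak in beta 2 and beta 3, while 4 of 4 had one, mostly weak, in beta 1.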

How the data were processed

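ATAC-Seq peak lists of 7 libraries (2 alpha, 3 beta, 2 delta) were used. Per the submitters' processing notes, the tools were FastQC, Trimmomatic, Bowtie2, Picard, and MACS2, with reads aligned to GRCm38, and versions are not given in the sources used here. The authors called peaks in each library separately, and the lowest -log10 p in the deposited lists was 2.01. The deposited columns hold the MACS2 score, the fold enrichment as a ratio to the local background, the -log10 p, and the -log10 q, each made by the authors from that library's reads alone. Read depth is not in the lists, so no counting interval was given.

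Distinct intervals were ranked by -log10 p, and each gene took its strongest peak within 1000 bp of a start (GENCODE annotation of GRCm38, Python 3.11.15, bedtools 2.31.1). Rank scores were compared by an exact permutation test over the 210 assignments of libraries to cell types, and p-values were adjusted by the Benjamini-Hochberg method over all 39627 genes with a start peak. Libraries are pools of mice, and p-values measure the spread between libraries. The paper states that the cell types compared came from the same animals, so some libraries may share mice. Which ones do is not given, and the test treated libraries as independent. The test was checked on simulated data. Named genes were those with a cell type pattern of start peaks, the 10 highest rank scores, the 10 largest shares between cell types, members whose starts differ (the strongest start given), and members without a start peak. The 46 members and the lists were chosen with earlier results of these data known. Alternatives were other thresholds, start windows, annotations, and measures, and each library left out. Sequences were read from the RefSeq GRCm38 genome (pysam 0.24.0).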

Additional observations from a re-analysis of the deposited data

How the results depend on the processing

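No gene passed adjustment by the exact permutation test in any alternative, for start peaks or densities. The few assignments left little or no room to pass in any of them, so this does not show that the cell types are alike. The counts of genes with a start peak in at least 2 replicates held within 1.5 times of those reported except in beta cells, where 23 of 35 remained in number with peaks of -log10 q of at least 2, and 23 with every replicate required. Members without a start peak numbered 10 with -log10 q of at least 2, 10 with the 50000 strongest peaks, 5 with the 5′ end alone, 0 within 3 kb, and 2 with RefSeq starts (Mirg and Nnat). With single libraries left out they numbered 1 to 4, with 3 without alpha 2 and 4 without beta 1. The counts with each library left out ranged from 33 to 38 in alpha, 24 to 35 in beta, 32 to 35 in delta, and 22 to 27 for all libraries. These ranges mix rules. With an alpha or delta library left out, a peak in the single library left was enough, and with a beta library left out both others needed one. The median relative densities ranged from 1.76 to 2.14, 1.20 to 1.52, and 1.55 to 1.78. Density medians rose to 1.72 in beta and 2.29 in delta with -log10 q of at least 2, to 1.80 and 2.29 with the 50000 strongest peaks, and in delta to 2.03 without flanks, and the cause was not tested. The exact p of Grb10 (0.381), Zim1 (0.486), and Ube3a (0.790) came with the opposite direction on the -log10 q scale. Over their alternatives the exact p ranged from 0.00952 to 1.0 for Plagl1 (1.0 with the 5′ end alone, which is another start), 0.0190 to 0.343 for Cd81, 0.00952 to 0.111 for Magel2, 0.0190 to 0.111 for Peg13, and 0.0381 to 0.410 for Rasgrf1.

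With the replicate number as a block, 36 assignments allow a p of 0.0556 at the smallest, and 0 genes were called at any level, as when any beta library was left out. Deviations of same-numbered libraries correlated at -0.036 to 0.0556, which cannot show whether those libraries share mice. With labels exchanged only within sex, 868 genes had an unadjusted p under 0.05, against 1630 for the reported test and 4519 on the -log10 q scale. The RefSeq starts, the comparison within lanes, and the YY1 motif were chosen after seeing the data. Read depth is not in the lists. By the paper's quality figures, beta 1 and beta 2 had fewer unique mapped reads than any alpha or delta library. Beta 3 had more than delta 2 and fewer than the rest of the alpha and delta libraries. The effect of depth on weak peaks, and on starts weaker or absent in beta libraries, was not tested.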
